A study of Mus musculus with 12 samples.

Results

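Brown adipose tissue of mice with a single copy of the Ucp1-CreEvdr transgene was compared with white adipose tissue of mice of the same genotype, across all genes. The 4 libraries were chosen by their labels alone, 2 of interscapular brown fat and 2 of posterior subcutaneous (inguinal) white fat, out of 12 libraries in the series. The mice carried the genotype labelled 1xUcp1-CreEvdr. They were 6 weeks old, bred in house, kept at room temperature on standard chow and killed in the morning with no treatment. Wild type mice of the same age and housing, with 2 brown and 2 white libraries, gave a depot difference without the transgene, and 2 white libraries of mice with 2 copies (2xUcp1-CreEvdr) served to mark genes that go with lymphoid RNA. The transgene places Cre recombinase under control sequences of Ucp1 on a bacterial artificial chromosome, and serves to recombine floxed alleles in thermogenic fat cells. No mouse here was labelled as carrying a floxed allele. The labels give neither the sex of the mice nor which depots came from the same mouse, and do not say that the 2 libraries of a group are separate animals. A p-value here therefore speaks to the spread among libraries alone, and that spread may be technical.

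Brown fat burns fuel for heat: its adipocytes are packed with mitochondria, and uncoupling protein 1 lets protons leak back across the inner membrane without making ATP. White fat stores triglyceride and secretes hormones such as leptin. The inguinal depot also surrounds a lymph node and, in mice, lies beside mammary tissue, so a piece of it can hold B cells, T cells, node stroma and epithelium beside adipocytes. The question of the comparison was which differences between the depots stand apart from the lymphoid RNA in the white libraries.

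The lymphoid RNA itself was plain. Total counts were 15679884 and 16485934 in the 1-copy brown libraries and 22373009 and 18330209 in the 1-copy white libraries. The B cell and T cell lists together summed to 217 and 185 CPM (counts relative to the library total, scaled with TMM factors) in 1-copy brown and to 5184 and 5185 CPM in 1-copy white. The wild type depots stood at 146 and 131 CPM in brown and at 254 and 233 CPM in white. The 1-copy white libraries thus stood far above both depots of the wild type and above their own brown partners, and 2-copy white lay in the same range at 5447 and 5961 CPM.

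**Figure D1:**
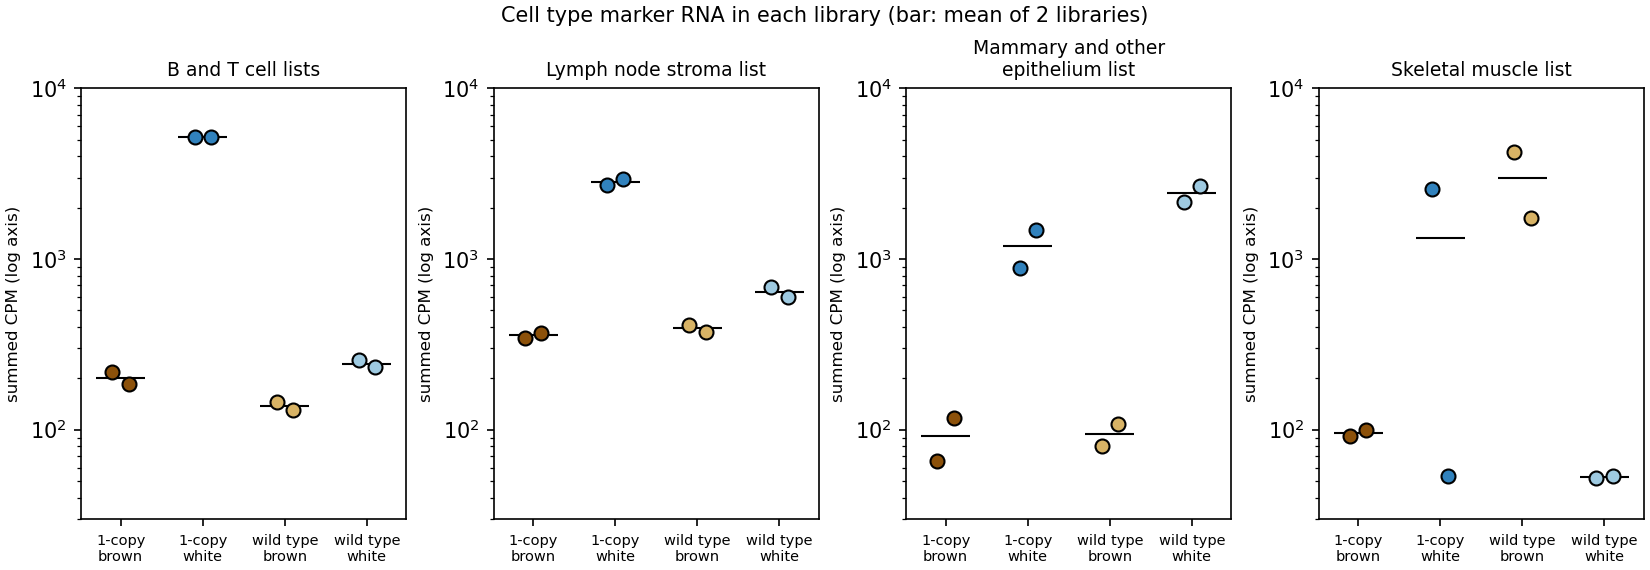
Summed CPM (log axis) of 4 marker gene lists in each library of the 1-copy and wild type depots; points are libraries and bars the mean of 2. B and T cell RNA reached 5184 and 5185 CPM in 1-copy white, muscle RNA was high in 1 of the 2 libraries (2584 and 53.4 CPM), and epithelial RNA was high in white of both genotypes.

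The labels held for the transgene in brown fat and could not be checked in most of the transgenic white libraries. The Cre row that the authors had added held 606 and 444 reads in 1-copy brown and 83 and 0 reads in 1-copy white, and every wild type library was at 0. Cre was therefore read in 1 of the 2 white libraries labelled 1-copy, the one that also held 2400 Ucp1 reads, against 28 in the other. Both 2-copy white libraries behind the lymphoid mark were also at 0 Cre reads, with 10 and 4 Ucp1 reads, so their genotype rests on the label. The depot difference of Cre was 4.55 ± 1.12 on the log2 scale (adjusted p = 0.0212, edgeR's quasi-likelihood test as for every adjusted p below unless another tool is named), but DESeq2 did not call it (adjusted p = 0.299), nor did edgeR without either 1-copy brown library (adjusted p = 0.0814 without replicate 1 and 0.0618 without replicate 2). The same white library, replicate 1, carried skeletal muscle RNA: its muscle list summed to 2584 CPM, against 53.4 CPM in replicate 2.

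Promoters of genes at both ends of the comparison are shown, because they let a reader see sequence beside the measured difference. Each runs from 250 bases before to 50 bases after the RefSeq start of the gene on GRCm38.p6 (the assembly also named mm10), and capitals mark the motif found. For the brown-higher genes Cpn2 (chr16:30267483-30267782, minus strand) and Slc27a2 (chr2:126552774-126553073, plus strand) the motif was AAGGTCA, a nuclear receptor half-site known from estrogen-related receptors, found here as its reverse complement TGACCTT.
Cpn2: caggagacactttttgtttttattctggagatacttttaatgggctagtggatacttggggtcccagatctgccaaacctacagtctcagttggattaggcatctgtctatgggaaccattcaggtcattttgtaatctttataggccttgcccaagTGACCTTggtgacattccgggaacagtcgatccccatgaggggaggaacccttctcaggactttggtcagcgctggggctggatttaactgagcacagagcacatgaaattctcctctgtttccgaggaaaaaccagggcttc
Slc27a2: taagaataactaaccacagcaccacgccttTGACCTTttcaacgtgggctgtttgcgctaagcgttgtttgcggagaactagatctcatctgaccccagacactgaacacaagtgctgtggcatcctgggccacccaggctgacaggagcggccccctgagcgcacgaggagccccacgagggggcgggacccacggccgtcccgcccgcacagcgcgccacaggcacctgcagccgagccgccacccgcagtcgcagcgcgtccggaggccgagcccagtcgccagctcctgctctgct
For the white-higher lymphocyte genes Cd79a (chr7:24897247-24897546, plus strand) and Cd3e (chr9:45009562-45009861, minus strand) the motif was ACAGGAAGT, an ETS factor motif, read as ACTTCCTGT in Cd3e.
Cd79a: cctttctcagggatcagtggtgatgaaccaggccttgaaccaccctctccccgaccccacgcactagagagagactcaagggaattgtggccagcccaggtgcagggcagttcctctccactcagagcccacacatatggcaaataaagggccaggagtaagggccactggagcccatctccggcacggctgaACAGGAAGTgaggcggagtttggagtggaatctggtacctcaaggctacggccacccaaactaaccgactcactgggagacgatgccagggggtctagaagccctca
Cd3e: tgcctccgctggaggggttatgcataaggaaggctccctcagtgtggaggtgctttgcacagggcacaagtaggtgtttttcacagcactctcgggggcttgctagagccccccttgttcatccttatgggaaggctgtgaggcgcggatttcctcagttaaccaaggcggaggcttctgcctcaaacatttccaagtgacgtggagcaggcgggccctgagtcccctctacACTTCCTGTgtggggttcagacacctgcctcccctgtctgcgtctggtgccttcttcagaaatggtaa
Searched on both strands, AAGGTCA stood in 5.40% of the promoters of brown-higher genes that stand apart (139 of 2574 genes with a promoter sequence), in 4.24% of all tested genes (506 of 11943) and in 5.38% of all 27025 genes in the table. It stood in 10 of 97 genes of the respiratory chain, citrate cycle and fatty acid oxidation lists, and in 5 of 49 genes of the lymphocyte lists, so its share was about the same in both. ACAGGAAGT stood in 41 of 1600 lymphoid-marked white-higher genes (2.56%), in 5 of 49 genes of the lymphocyte lists and in 1.45% of all tested genes. In all 6 motifs were searched, and another ETS motif, CCGGAAGT, ran the other way: it stood in 60 of 1600 marked genes (3.75%) and 1 of 49 genes of the lymphocyte lists, against 7.90% of all tested genes. A match is a run of letters and not a shown binding site.

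Depot differences were widespread. Of 15559 genes tested, 4582 (29.4%) were called higher in 1-copy brown and 6320 (40.6%) higher in 1-copy white, at an adjusted p under 0.05. In 13734 genes (88.3%) the brown and white libraries did not overlap. Between the wild type depots 4505 genes (29.0%) were higher in brown and 5002 (32.1%) higher in white. Median-of-ratios scaling moved the median difference of all genes from -0.24 to -0.13 on the log2 scale, a shift of about 0.12. Leaving genes with the lymphoid mark, defined below, out of the fit moved lists such as complex I and matrix genes the other way. These lists held no marked member, and their medians went from 2.75 to 2.57 and from -1.30 to -1.48. Differences below are best read relative to shifts of this size in either direction.

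A gene was given a lymphoid mark if it was called higher in 2-copy white than in wild type white and differed by at least 2-fold. This held for 2276 genes (14.6%). The mark uses none of the 4 libraries compared. It takes in any effect of 2 copies on white fat as well as lymphoid RNA, and it caught 19 of 20 tested B cell genes and all 25 tested T cell genes. It also caught 3 of 19 muscle genes. A gene was said to stand apart if it was called between the 1-copy depots, had no mark, and was called in the same direction between the wild type depots, whose 4 libraries are separate but belong to the same fit and include the wild type white pair used for the mark.

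By this rule 2755 white-higher genes stood apart, 43.6% of those called, and 2081 (32.9%) carried the mark. The remaining 1484 had no mark and no such wild type call. Of the marked genes, 1079 (51.9%) were also higher in wild type white, 863 (41.5%) were not called between the wild type depots and 139 were higher in wild type brown. Among brown-higher genes 3227 (70.4%) stood apart and only 19 carried the mark. Wild type white then replaced 1-copy white as the partner of 1-copy brown. In that comparison 2973 of the 3227 (92.1%) and 2511 of the 2755 (91.1%) were called in the same direction. Of all tested genes 27.7% and 30.3% were called higher and lower in it. Its 1-copy brown pair and its wild type white pair both entered the definition. These shares are therefore largely set by the rule and are descriptions.

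**Figure D2:**
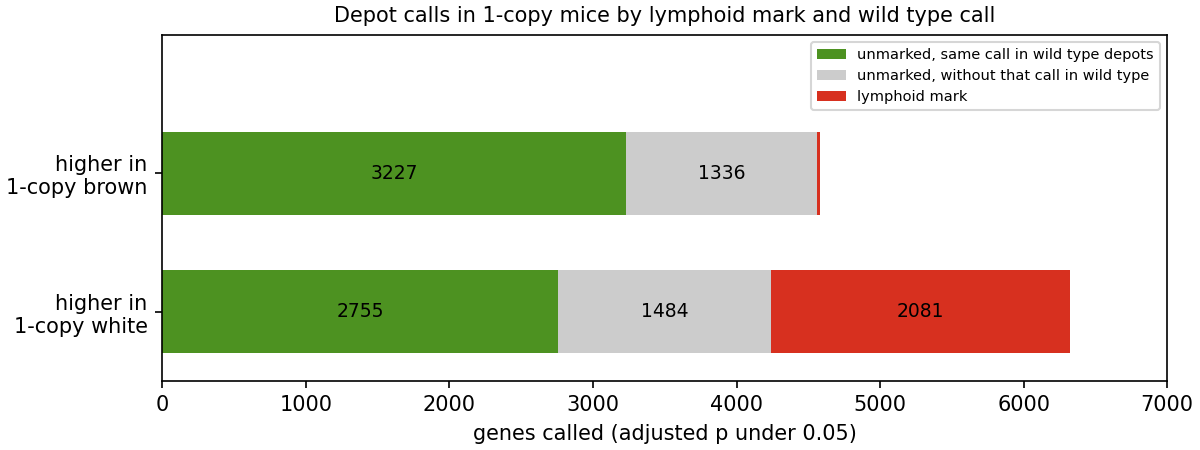
Number of genes called in each direction between the 1-copy depots, split by lymphoid mark and by the call between the wild type depots. The mark covers 2081 of the white-higher genes and 19 of the brown-higher genes.

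The sizes separated as well. Marked white-higher genes had a median log2 difference of -3.13 in 1-copy mice and -0.94 in wild type mice. White-higher genes that stood apart had medians of -1.63 in 1-copy and -1.96 in wild type mice, and brown-higher ones 1.27 in 1-copy and 0.94 in wild type mice. The rule itself selects stand-apart genes with like calls in the 2 genotypes. Marked genes are picked partly by the wild type white pair, on which their wild type median also rests. These medians are therefore descriptions. The difference between the genotypes was tested directly as an interaction, the 1-copy depot difference minus the wild type one. It was called higher in 2150 genes (13.8%) and lower in 2926 (18.8%), and the lower calls took in 1290 of the 2081 marked genes (62.0%). The mark and the interaction share the wild type white pair, and these genes were picked as higher in 1-copy white. That share is therefore partly set by the rule and is a description. Median-of-ratios scaling gave 3068 higher and 2401 lower calls and moved the median interaction of all genes from 0.01 to 0.15, so small interactions depend on the scaling. Among the stand-apart genes it was called higher in 917 (28.4%) and lower in 83 of the brown-higher ones, and higher in 263 (9.55%) and lower in 201 (7.30%) of the white-higher ones.

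**Figure D3:**
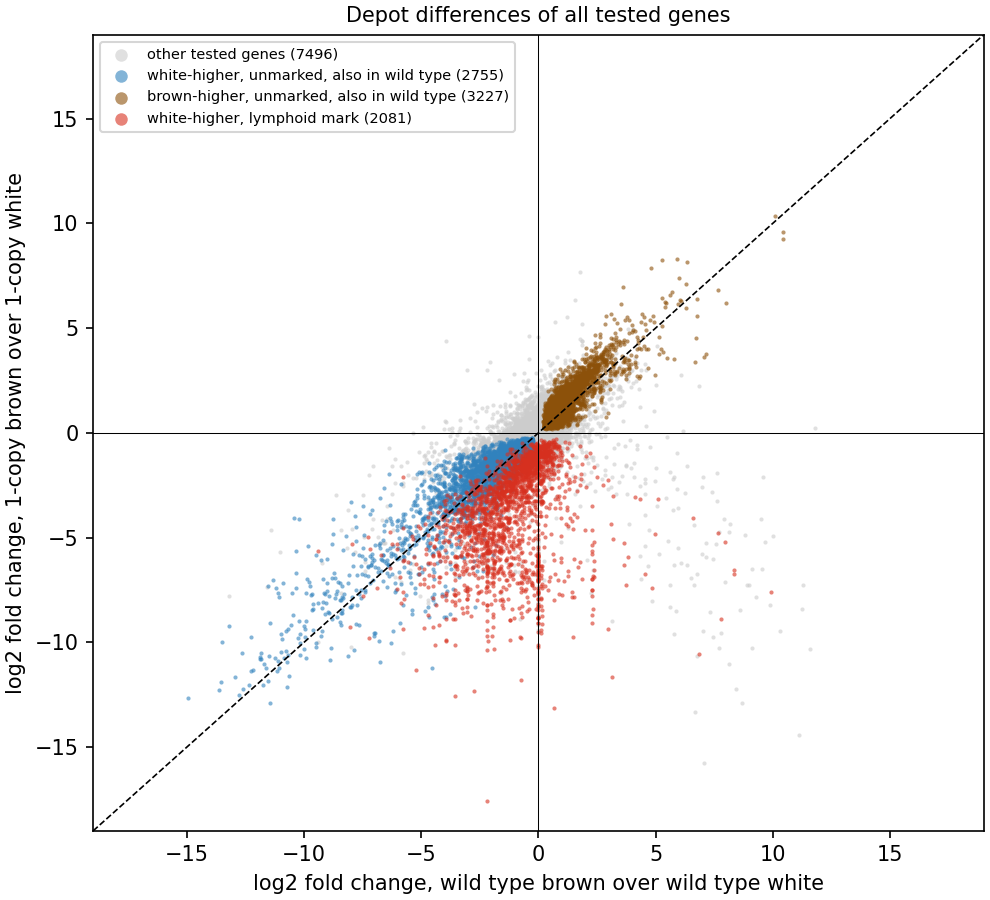
Log2 fold change of brown over white in 1-copy mice (vertical) against wild type mice (horizontal) for 15559 genes; the dashed line marks equal values. Of the 2081 marked white-higher genes 2010 lie below the line, with a median of -3.13 in 1-copy against -0.94 in wild type mice. The mark shares the wild type white pair with the horizontal axis, so this position is partly set by the rule.

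Lymphocyte genes were far higher in white than in brown fat of 1-copy mice. Of 20 tested B cell genes 19 were higher in 1-copy white, with a list median of -7.05 on the log2 scale, and between the wild type depots 3 were higher in brown and 2 in white. Cd79a, a signalling chain of the B cell receptor (mm10 chromosome 7, 24897381 to 24902197), stood at 1.59 and 1.13 CPM in 1-copy brown and at 287 and 305 CPM in 1-copy white. Its groups did not overlap, and the difference was -7.76 ± 0.26 (adjusted p = 1.25e-08). In wild type mice Cd79a was at 1.11 and 1.09 CPM in brown and 0.395 and 0.713 CPM in white, so there brown was the higher depot (adjusted p = 0.0431).

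Other B cell genes followed suit. Ms4a1, which encodes CD20, had 0.908 and 1.13 CPM in 1-copy brown and 115 and 118 CPM in 1-copy white. Cr2, the complement receptor of follicular B cells and follicular dendritic cells, had 0.227 and 0 CPM in brown and 86.6 and 111 CPM in white. In both of these genes the white values lay far above the brown values, and neither was called between the wild type depots (adjusted p = 0.0955 and 0.168). Cd22, an inhibitory receptor of B cells, Cd79b, the partner of Cd79a, and Fcer2a, the low affinity IgE receptor, had differences of -7.70, -7.10 and -7.58.

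All 25 T cell genes were higher in 1-copy white (median -7.40), and all 25 carried the mark. Between the wild type depots 9 were higher in white, with a median of -0.74. Cd3e, a chain of the T cell receptor complex, stood at 0.529 and 0.425 CPM in 1-copy brown and at 84.7 and 85.4 CPM in 1-copy white (difference -7.46 ± 0.21, adjusted p = 5.49e-09). Cd8a, the co-receptor of cytotoxic T cells, had 0.529 and 0.213 CPM in brown and 177 and 187 CPM in white. Tcf7, a transcription factor of naive T cells, had 0.983 and 1.49 CPM in brown and 319 and 300 CPM in white, and it was the one of these 3 that was also called between the wild type depots (-1.32 ± 0.22, adjusted p = 0.000461). Cd8b1, the other CD8 chain, and Lat, an adaptor of T cell receptor signalling, had differences of -7.87 and -8.34. All 25 genes of a list shared by lymphocytes and other leukocytes were higher in 1-copy white and marked (median -5.60), and 21 of them were also higher in wild type white (median -2.26).

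Genes of the lymph node itself were mostly higher in white too. Of 17 tested genes of node stroma, 13 were higher in 1-copy white and 1 in brown, a call lost without brown replicate 2, white replicate 1 or white replicate 2. Of the 17, 8 were higher in wild type white, 10 carried the mark, 3 stood apart, and the interaction was called lower in 6. Glycam1 encodes a mucin of the high endothelial venules through which lymphocytes enter a node, and in mice is also known from mammary epithelium. It had 0 reads in both 1-copy brown libraries and 1088 and 1290 CPM in 1-copy white, at least 10756-fold lower in brown with brown set at 3 counts over its libraries. The wild type libraries were at 0 in brown and at 0 and 0.0446 CPM in white. Ccl21a, the chemokine that draws T cells into a node, had 2.80 and 0 CPM in 1-copy brown and 197 and 221 CPM in 1-copy white. Its receptor Ccr7 had 0.605 and 0.638 CPM in brown and 136 and 129 CPM in white. Clu, a chaperone also abundant in follicular dendritic cells, was higher in white of both genotypes, by -4.86 ± 0.17 in 1-copy and -2.21 ± 0.15 in wild type mice.

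Antigen presentation, plasma cell and cell cycle genes were also higher in white, to differing extents. All 10 MHC class II genes were higher in 1-copy white (median -3.66), all 10 were marked, and 8 were also higher in wild type white. H2-Ob, a class II accessory chain of B cells, stood at 1.44 and 2.27 CPM in 1-copy brown and 182 and 195 CPM in 1-copy white. Of 8 tested plasma cell genes 7 were higher in white and 5 were marked; Mzb1, a chaperone of antibody-secreting cells, had a difference of -8.27 ± 0.44. All 24 proliferation genes were higher in 1-copy white, but 22 of them were also higher in wild type white and 12 carried no mark. Mki67, a marker of cycling cells, had 2.65 and 3.05 CPM in 1-copy brown and 66.1 and 76.7 CPM in 1-copy white, against 3.04 and 2.91 CPM in wild type brown and 41.8 and 29.6 CPM in wild type white. Its white excess was thus present in both genotypes and larger with 1 copy (interaction -1.06 ± 0.31, adjusted p = 0.0269).

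**Figure D4:**
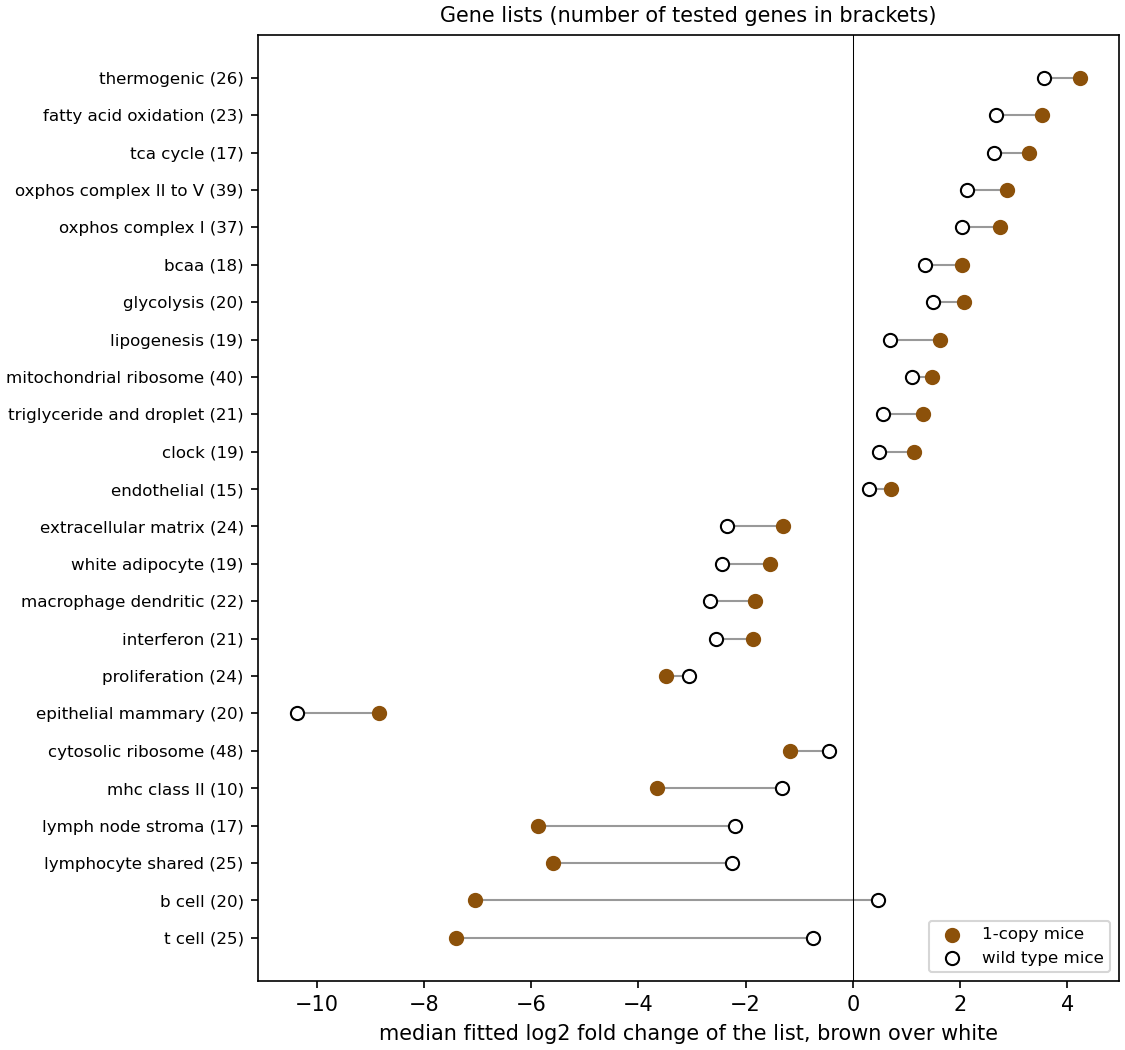
Median fitted log2 fold change (brown over white) of 24 gene lists in 1-copy (filled) and wild type mice (open). Energy metabolism lists lie right of 0 in both genotypes, while the B cell (-7.05 in 1-copy, 0.47 in wild type) and T cell (-7.40 in 1-copy, -0.74 in wild type) lists differ most among the 24 lists plotted, which leave out skeletal muscle (-7.60 in 1-copy, 7.60 in wild type); fitted values of genes with a group at 0 enter as fitted.

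The thermogenic program mostly stood apart by the rule, which for brown-higher genes rests mainly on the wild type call. Of 26 tested thermogenic genes 24 were higher in 1-copy brown and 24 stood apart, none was marked, and the median difference was 4.23 in 1-copy and 3.56 in wild type mice. Ucp1 (mm10 chromosome 8, 83290352 to 83298452) stood at 7480 and 5316 CPM in 1-copy brown and at 90.0 and 1.24 CPM in 1-copy white. The groups did not overlap, but the 2 white libraries differed widely, which set the error of the difference (7.13 ± 1.92, adjusted p = 0.0120). With the 4 libraries fitted alone Ucp1 was not called (adjusted p = 0.127).

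The other brown adipocyte markers had the same order of depots. Cidea, a lipid droplet protein, stood at 2428 and 2558 CPM in 1-copy brown and 73.3 and 23.7 CPM in 1-copy white (5.68 ± 0.62, adjusted p = 5.56e-05). Cox7a1, a muscle and brown fat form of a cytochrome c oxidase subunit, had 582 and 592 CPM in brown and 11.7 and 3.69 CPM in white. Cox8b, another such subunit, had 1158 and 1135 CPM in brown and 56.5 and 27.3 CPM in white. In each of them white replicate 1 was above replicate 2, as for Ucp1. Dio2, which activates thyroid hormone, had 205 and 88.1 CPM in brown and 16.5 and 1.42 CPM in white (4.01 ± 1.04, adjusted p = 0.0101, and 0.121 with the 4 libraries alone).

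The differences of regulators and further brown fat genes varied in size. Ppargc1a, the coactivator of mitochondrial biogenesis, had 107 and 113 CPM in 1-copy brown and 8.85 and 7.73 CPM in 1-copy white, a difference of 3.73 ± 0.51. Prdm16, a determinant of brown fat identity, had 55.1 and 57.3 CPM in brown and 13.0 and 12.7 CPM in white (2.13 ± 0.23). Esrra, an estrogen-related receptor that controls mitochondrial genes, differed by 2.54 ± 0.12, and Elovl3, a fatty acid elongase induced by cold, by 4.93 ± 0.81. S100b, a calcium-binding protein that brown adipocytes release, differed by 5.44 ± 0.16 in 1-copy and 3.24 ± 0.14 in wild type mice, and that gap passed the interaction test (2.20 ± 0.20, adjusted p = 6.28e-05). The thermogenic members not called were Adrb3, the beta-3 adrenergic receptor (0.66 ± 0.27, adjusted p = 0.0519), and Zfp516, a zinc finger activator of Ucp1 (-0.17 ± 0.21, adjusted p = 0.486), both named after their values were seen.

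The largest brown-higher differences among genes that stood apart and were well expressed included enzymes of fatty acid handling. Kng2, a kininogen gene, stood at 200.4 and 194 CPM in 1-copy brown and 0.750 and 0.622 CPM in 1-copy white (8.15 ± 0.38, adjusted p = 1.13e-07). Cpn2, a subunit of carboxypeptidase N whose promoter is printed above, had 139 and 129 CPM in brown and 1.39 and 0.133 CPM in white (7.37 ± 0.55). Slc27a2, a fatty acid transporter and acyl-CoA synthetase, had 215 and 253 CPM in brown and 5.29 and 0.444 CPM in white. In all 3 genes both brown values lay far above both white values. Fabp3, a fatty acid binding protein, Cpt1b, the mitochondrial gate for long fatty acids, and Acot11, a thioesterase, differed by 6.83 ± 1.15, 6.00 ± 0.77 and 5.54 ± 0.78. Me3, a mitochondrial malic enzyme, Perm1, a regulator of mitochondrial genes in muscle, and Gmpr, a purine enzyme, differed by 6.34, 6.14 and 5.56.

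Respiratory chain genes were higher in brown nearly without exception. All 37 tested complex I genes were higher in 1-copy brown and stood apart, with a median of 2.75, against 2.04 in wild type mice. Ndufs7 had 489 and 470 CPM in 1-copy brown and 72.6 and 66.4 CPM in 1-copy white, and Ndufa8 had 415 and 399 CPM in brown and 71.7 and 67.8 CPM in white. Of 39 genes of complexes II to V, 37 were higher in brown and 1 in white (median 2.88); Cox5a, a cytochrome c oxidase subunit, differed by 3.21 ± 0.13 and Atp5d, a subunit of ATP synthase, by 2.66 ± 0.10. For Ndufs7 and Ndufa8 the libraries of each depot lay close together. The depots did not overlap in all 37 complex I genes and in 38 of the 39 others, against 88.3% of all tested genes. The interaction was called higher in 30 of the 37 complex I genes and 33 of the 39 others, against 13.8% of all tested genes. With lymphoid-marked genes removed from the fit it was called higher in 24 and 22 of them. The lymphoid-marked share of counts moved with this: 3.06% in both 1-copy brown libraries and 17.0% and 17.6% in 1-copy white, against 2.75% and 2.94% in wild type brown and 5.20% and 4.92% in wild type white. Its part in the interaction beyond that alternative was not tested.

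The fuel pathways that feed the chain had the same direction. In fatty acid oxidation 22 of 23 genes were higher in 1-copy brown and 1 in white (median 3.53); Cpt2, the inner membrane carnitine palmitoyltransferase, had 681 and 685 CPM in brown and 102 and 90.4 CPM in white. In the citrate cycle 16 of 17 were higher in brown and none in white (median 3.30); Suclg1, a succinyl-CoA ligase subunit, had 1749 and 1747 CPM in brown and 105 and 87.8 CPM in white. All 18 genes of branched-chain amino acid breakdown were higher in brown (median 2.04), among them Acad8, a dehydrogenase of the valine pathway (2.27 ± 0.08). All 40 mitochondrial ribosome genes were higher in brown with a lower median of 1.48, of which 39 stood apart, and Mrpl4 differed by 1.96 ± 0.09. Etfa, an electron carrier from fatty acid oxidation, and Fh1, the fumarate hydratase, differed by 3.61 ± 0.18 and 3.30 ± 0.12.

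In glycolysis 16 of 20 genes were higher in 1-copy brown, all 16 stood apart, and 3 were higher in white; Ldhb, a lactate dehydrogenase subunit, differed by 4.34 ± 0.21 and Pgam1, a phosphoglycerate mutase, by 2.81 ± 0.11. In lipogenesis 17 of 19 genes were higher in 1-copy brown, and 11 of 19 in wild type brown with 2 higher in wild type white, so that 11 of the 17 stood apart. Mlxipl, the carbohydrate-responsive activator of lipogenic genes also called ChREBP, had 795 and 621 CPM in 1-copy brown and 143 and 122 CPM in 1-copy white, against 799.9 and 578 CPM in wild type brown and 325 and 429 CPM in wild type white. Brown was alike in the 2 genotypes and white was lower with 1 copy, and the interaction passed (1.55 ± 0.29, adjusted p = 0.00353). Acacb, the acetyl-CoA carboxylase that controls fatty acid oxidation, differed by 3.27 ± 0.22 in 1-copy and 2.17 ± 0.21 in wild type mice.

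Genes of triglyceride synthesis and the lipid droplet were higher in 1-copy brown in 18 of 21 cases and in wild type brown in 11. Gpd1, which makes glycerol 3-phosphate, had 15557 and 12715 CPM in 1-copy brown and 1223 and 875 CPM in 1-copy white, and Plin3, a droplet coat protein, differed by 2.14 ± 0.14. Of 20 cholesterol synthesis genes 10 were higher in brown and 3 in white, against 29.4% and 40.6% of all tested genes. Hmgcs1, an early enzyme of the pathway, was higher in brown (1.36 ± 0.14), and that call was lost with wild type white as the partner (adjusted p = 0.251). Srebf2, a transcriptional regulator of the pathway, was higher in white (-1.27 ± 0.11) and was not called between the wild type depots (adjusted p = 0.48).

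Vessel, hormone and clock genes also leaned to brown in 1-copy mice, less so in wild type mice. Of all tested genes 29.4% were higher in 1-copy brown and 40.6% in 1-copy white. Between the wild type depots these shares were 29.0% and 32.1%. Of the brown-higher members 6 endothelial, 6 thyroid and adrenergic and 5 clock genes stood apart. Of 15 endothelial genes 11 were higher in 1-copy brown and 1 in white, and between the wild type depots 6 were higher in brown and 3 in white; the 1-copy white call was lost without brown replicate 2 or white replicate 1. Tek, the angiopoietin receptor, had 108 and 104 CPM in 1-copy brown and 35.5 and 36.3 CPM in 1-copy white (1.56 ± 0.08), against a wild type difference of 0.47 ± 0.08, and Flt1, a VEGF receptor, differed by 1.98 ± 0.13 in 1-copy and 0.90 ± 0.13 in wild type mice. In the thyroid and adrenergic list 10 of 16 tested genes were higher in brown and 2 in white (1 in most alternatives), and in wild type mice 6 and 2; Thrb, a thyroid hormone receptor, differed by 2.27 ± 0.16, and Slc16a10, a transporter of thyroid hormone and aromatic amino acids, by 1.499 ± 0.10 with no call in wild type mice (0.02 ± 0.10, adjusted p = 0.868). Of 19 clock genes 12 were higher in 1-copy brown and 2 in white (1 without white replicate 1), and between the wild type depots 9 were higher in brown and 4 in white. Hlf, a clock output factor, had 66.2 and 68.2 CPM in 1-copy brown and 7.58 and 9.73 CPM in 1-copy white, and Per3, a period gene, had 124 and 112 CPM in brown and 23.3 and 33.1 CPM in white. In wild type mice Per3 stood at 17.4 and 31.3 CPM in brown and 16.9 and 21.0 CPM in white and was not called (adjusted p = 0.244). The hour of tissue collection within the morning is not given for each mouse.

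The futile cycle list, genes of heat production that bypasses Ucp1, had 8 of 14 tested members higher in brown and 4 in white; the white count was 1 without either 1-copy brown library or with the 4 libraries alone, and 2 without white replicate 1. Ckb, a creatine kinase, had 73.0 and 66.2 CPM in 1-copy brown and 27.5 and 27.7 CPM in 1-copy white (1.33 ± 0.15). Atp2a2, a calcium pump of the endoplasmic reticulum, had 447 and 422 CPM in brown and 164 and 170.4 CPM in white (1.38 ± 0.11). Both were also called between the wild type depots. Over all tested genes 29.4% were higher in 1-copy brown and 40.6% in 1-copy white, beside which the counts of this short list are to be read.

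Patterning genes record where in the body a depot lies. None of the 28 tested Hox genes carried the mark, and 2 of 10 genes in the list of brown patterning genes did, against 14.6% of all genes. Zic1, a dorsal midline factor and marker of interscapular brown fat (mm10 chromosome 9, 91358058 to 91365810), had 17.2 and 15.2 CPM in 1-copy brown and 0.0375 and 0 CPM in 1-copy white (9.26 ± 0.75, adjusted p = 1.14e-05). Hoxc10, a posterior Hox gene (mm10 chromosome 15, 102966796 to 102971893), had 0 reads in both 1-copy brown libraries and 16.7 and 14.9 CPM in 1-copy white, at least 145-fold lower in brown with brown set at 3 counts over its libraries. The wild type depots had the same order, with Zic1 at 5.95 and 10.9 CPM in brown and 0 in white, and Hoxc10 at 0 in brown and 32.2 and 25.1 CPM in white.

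Of the 28 tested Hox genes 8 were higher in 1-copy brown and 12 in 1-copy white, shares close to those of all genes (29.4% and 40.6%), so the counts alone do not set the Hox genes apart. Hoxa4, Hoxa5 and Hoxc5, of anterior groups, were higher in brown, with Hoxa5 at 72.8 and 58.0 CPM in 1-copy brown and 5.48 and 5.86 CPM in 1-copy white (3.53 ± 0.25, adjusted p = 8.45e-07). Hoxa4 differed by 4.72 ± 0.21 and Hoxc5 by 2.49 ± 0.16. Not every anterior gene had this direction: Hoxd3 and Hoxd4, named after their values were seen, were higher in white. Hoxc8, of a more posterior group, had 2.496 and 4.96 CPM in brown and 37.4 and 33.7 CPM in white (-3.24 ± 0.64). In wild type mice 4 were higher in brown and 17 in white. The interaction was called higher in 12 of the 28 and lower in none, against 13.8% and 18.8% of all tested genes. With lymphoid-marked genes removed from the fit it was called higher in 9 of the Hox genes. Hoxa5 had 19.6 and 31.98 CPM in wild type brown, below both 1-copy brown libraries, and 7.02 and 7.18 CPM in wild type white.

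Other patterning factors gave a mixed picture. Their lists are short, and of all tested genes 29.4% were higher in 1-copy brown and 40.6% in 1-copy white. Of 9 tested factors of white fat 5 were higher in white and stood apart: Tbx15 (-1.65 ± 0.42, not called without brown replicate 1, adjusted p = 0.0517), a T-box factor also known from brown fat, and Shox2 (-2.57 ± 0.48) were among them, and Emx2 had 0 reads in both 1-copy brown libraries and 2.06 and 2.40 CPM in white. In the list of 10 brown patterning genes 6 were higher in brown, of which 3 stood apart, and 3 were higher in white. Ebf3, a helix-loop-helix factor, had 101 and 99.1 CPM in 1-copy brown and 34.9 and 29.8 CPM in 1-copy white. Lhx8, a LIM homeobox gene often used as a brown fat marker, had 8.02 and 8.72 CPM in 1-copy brown and 3.23 and 1.82 CPM in 1-copy white (1.72 ± 0.38), but 3.32 and 3.55 CPM in wild type brown and 5.70 and 3.03 CPM in wild type white, where the groups overlapped. Irx1, an Iroquois homeobox factor of the same list, was higher in white (-6.39 ± 0.52), the opposite of the list's name.

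**Figure D5:**
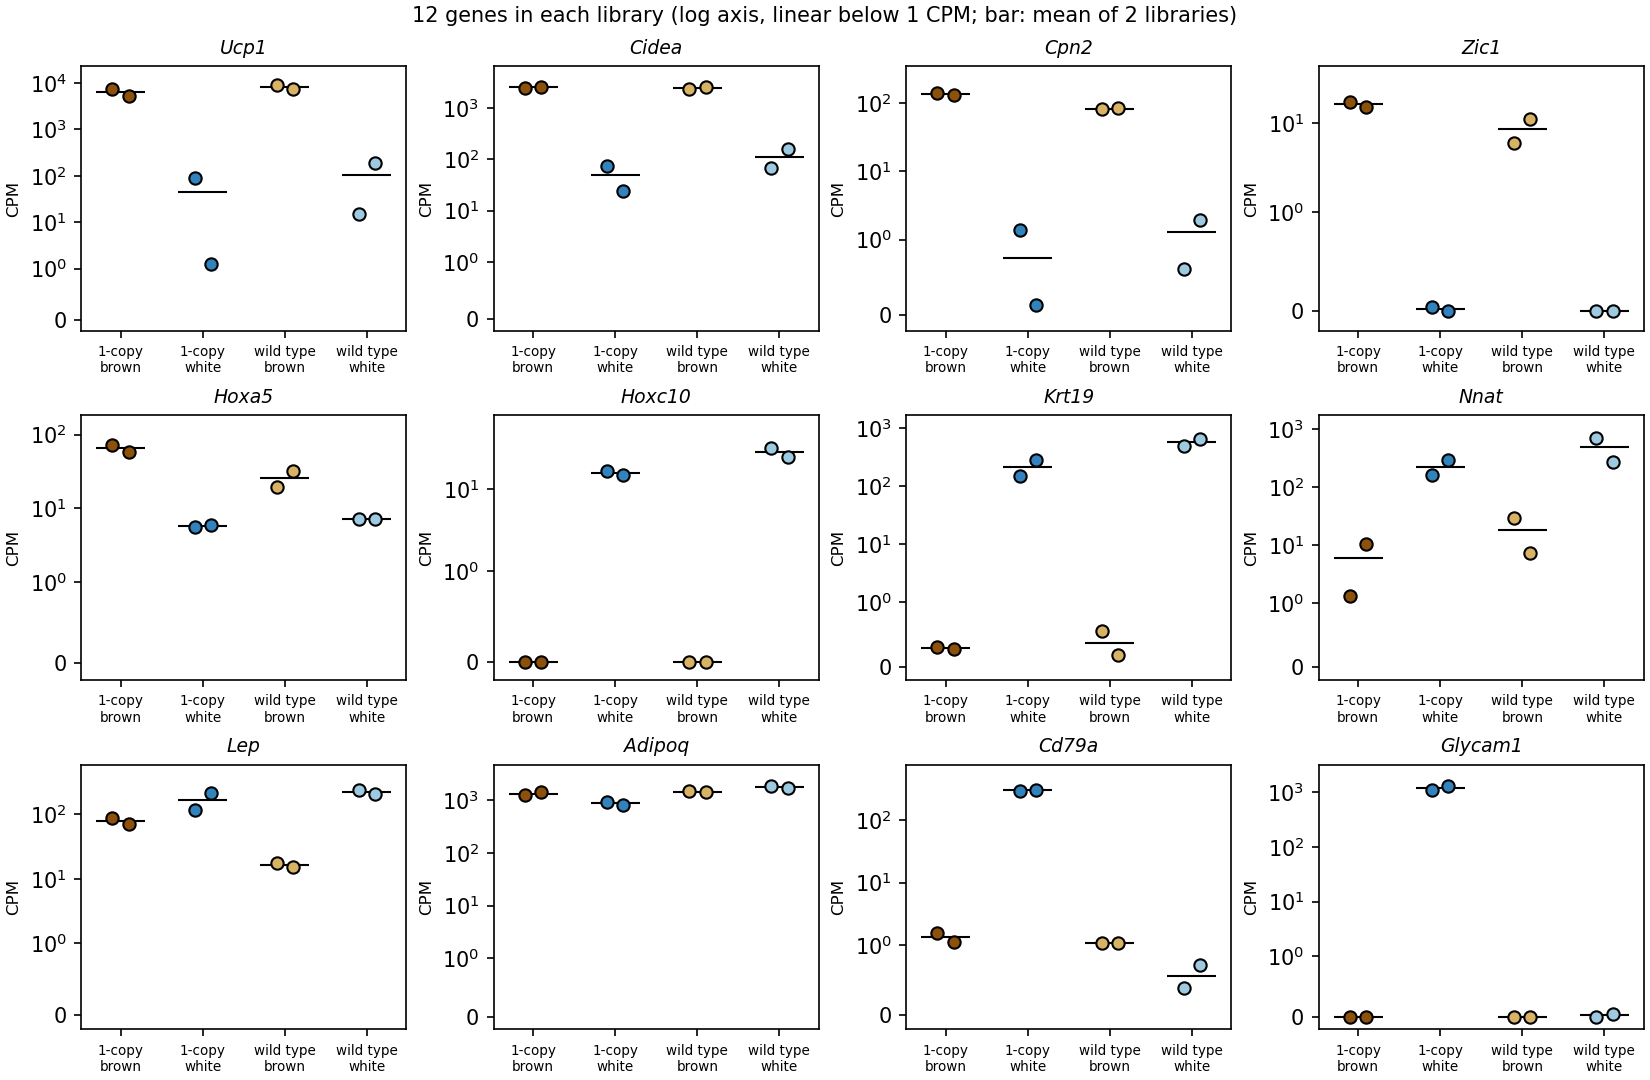
CPM of 12 genes in each library of the 4 depot groups (log axis, linear below 1 CPM); points are libraries and bars the mean of 2. Brown markers and Zic1 are high in brown of both genotypes, Hoxc10, Krt19 and Nnat in white of both, and Cd79a and Glycam1 in 1-copy white.

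On the white side, genes known from epithelium were among the largest stand-apart differences. Of 20 tested genes of mammary and other epithelium 19 were higher in 1-copy white and 19 in wild type white, none carried the lymphoid mark, and no interaction was called. Krt19, a keratin of simple epithelium (mm10 chromosome 11, 100140810 to 100148665), had 0.302 and 0.284 CPM in 1-copy brown and 152 and 277 CPM in 1-copy white (-9.48 ± 0.50, adjusted p = 3.09e-07). Its wild type values were 0.553 and 0.189 CPM in brown and 489 and 660.2 CPM in white. Krt18 and Krt8, its filament partners, had 98.6 and 178 CPM and 71.9 and 167 CPM in 1-copy white, and Epcam, an epithelial adhesion molecule, had 59.99 and 95.4 CPM there, against less than 1 CPM in every 1-copy brown library. Pgr, the progesterone receptor, had 0 reads in 1-copy brown and 20.0 and 27.1 CPM in 1-copy white, at least 212-fold lower in brown. These genes stand apart by the rule, which does not separate them from other tissue in the dissected piece. Fewer cells of a type and less RNA per cell cannot be told apart in bulk tissue.

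The 12 largest stand-apart, well expressed white-higher genes went partly with epithelium. They were Krt19, Ly6d, Krt18, Ptn, Prlr, D17H6S56E-5, Zbp1, Coro2a, Cd24a, Inhbb, Nnat and Ezr. Prlr, the prolactin receptor, had 2.57 and 4.32 CPM in 1-copy brown and 131 and 209.5 CPM in 1-copy white. Ptn, a heparin-binding growth factor, differed by -7.59 ± 0.65 and Ly6d, a surface antigen of epithelium and early lymphoid cells, by -8.34 ± 0.36. Inhbb, the activin B subunit that white adipocytes also make, had 1.21 and 3.26 CPM in brown and 76.7 and 102 CPM in white. Zbp1, a sensor of Z-form nucleic acids, and Coro2a, an actin-binding protein, differed by -5.48 and -5.42. Cd24a, a surface protein of progenitors, epithelium and B cells, and Ezr, whose product ezrin links membrane and cytoskeleton, differed by -5.36 ± 0.34 and -5.12 ± 0.18, and neither passed the interaction test (adjusted p = 0.806 and 0.181).

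White adipocyte genes formed a smaller stand-apart group. Of 19 tested, 12 were higher in 1-copy white and all 12 stood apart, 2 were higher in brown (1 without brown or white replicate 2), and 16 were higher in wild type white. Nnat, neuronatin, had 1.29 and 10.4 CPM in 1-copy brown and 161 and 291 CPM in 1-copy white (-5.25 ± 1.02, adjusted p = 0.00251). Sncg, gamma-synuclein, had 10.6 and 19.2 CPM in brown and 171 and 205 CPM in white, and Trim14, a tripartite motif protein, differed by -3.23 ± 0.23. Ccdc80, a secreted protein of white fat, differed by -1.91 ± 0.26 in 1-copy and -3.37 ± 0.27 in wild type mice.

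Lep and Adipoq, the genes of leptin and adiponectin, were not among the white-higher calls of 1-copy mice. Lep had 87.1 and 70.7 CPM in 1-copy brown and 117 and 212 CPM in 1-copy white, which did not pass (-1.06 ± 0.86, adjusted p = 0.297). In wild type mice Lep had 17.6 and 15.2 CPM in brown and 237 and 207 CPM in white and was called (-3.77 ± 0.96, adjusted p = 0.011), but the difference between the genotypes did not pass (interaction 2.70 ± 1.24, adjusted p = 0.138). Adipoq had 1213 and 1409 CPM in 1-copy brown and 913 and 816 CPM in 1-copy white and was higher in brown (0.60 ± 0.17, adjusted p = 0.00937). In wild type mice it had 1475 and 1394 CPM in brown and 1859 and 1649 CPM in white (-0.29 ± 0.17, adjusted p = 0.162), and here the interaction passed (0.89 ± 0.24, adjusted p = 0.0184). The 1-copy call was lost without brown replicate 2 (adjusted p = 0.0751) or white replicate 2 (adjusted p = 0.0617). With wild type white as its partner, 1-copy brown was lower in Adipoq by -0.42, so the direction rests on the 1-copy white level. The lymphoid-marked share of counts is high in those libraries, and its part in the Adipoq level was not tested.

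Matrix genes were higher in white with a smaller gap than in wild type mice. Of 24 tested, 17 were higher in 1-copy white and stood apart, 3 were higher in brown, and 21 were higher in wild type white; the median was -1.30 in 1-copy and -2.35 in wild type mice. The 3 brown-higher calls were down to 0 without brown replicate 1, with marked genes removed or with wild type white as partner, and to 1 without either white library. Lum, a small collagen-binding proteoglycan, had 27.3 and 22.0 CPM in 1-copy brown and 77.8 and 73.4 CPM in 1-copy white, against 32.2 and 30.7 CPM in wild type brown and 204 and 179 CPM in wild type white. Dcn, a proteoglycan of the same family, had 140.2 and 139.9 CPM in 1-copy brown and 309.6 and 299 CPM in 1-copy white, and Mmp2, a gelatinase, differed by -1.33 ± 0.15. For Lum both brown and white values were lower with 1 copy than in wild type mice, with the wider gap in white. The interaction was called higher in 18 of the 24 genes, against 13.8% of all tested genes. With lymphoid-marked genes removed from the fit it was called higher in 13 of them. Mmp3, another matrix protease, was among those without that call in the full fit (adjusted p = 0.374).

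Macrophage and interferon genes mostly stood apart. Of 22 macrophage and dendritic cell genes 18 were higher in 1-copy white, 12 stood apart and 6 carried the mark, and 20 were higher in wild type white. The marked ones were Cx3cr1, Itgax, Xcr1, Clec9a, Flt3 and Siglech, of which Xcr1, Clec9a and Flt3 belong to dendritic cells and Siglech to plasmacytoid dendritic cells; these 6 were named after their values were seen. Lyz2, the lysozyme of macrophages, had 54.4 and 61.2 CPM in 1-copy brown and 459.9 and 475 CPM in 1-copy white (-3.01 ± 0.25), and stood apart. Of 21 interferon response genes 19 were higher in 1-copy white, 18 stood apart and 1 was higher in brown. Irf7, a regulator of interferon genes, had 16.4 and 14.2 CPM in brown and 105 and 83.8 CPM in white, and Oas2, an antiviral RNA sensor, differed by -2.53 ± 0.31. The gene higher in brown was Rsad2, which encodes the antiviral protein viperin.

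Cytosolic ribosome genes were nearly all higher in 1-copy white, with and without the mark, against 40.6% of all tested genes. Of 48 tested, 47 were higher in 1-copy white, with a median of -1.18, against 34 higher in wild type white with a median of -0.45. The mark caught 19 and 17 stood apart, and the interaction was called lower in 45 of the 48, against 18.8% of all tested genes. Rpl12 had 155 and 149 CPM in 1-copy brown and 718 and 734 CPM in 1-copy white, against 174 and 151 CPM in wild type brown and 307 and 331 CPM in wild type white. Rps16 differed by -1.70 ± 0.10 in 1-copy and -0.45 ± 0.10 in wild type mice. Rpl6, which had no mark and stood apart, had an interaction of -0.55 ± 0.11 (adjusted p = 0.00531), so its white excess was larger in 1-copy than in wild type mice. Standing apart means no mark and a call in the same direction between the 1-copy depots and between the wild type depots. It does not show a gene to be free of lymphoid RNA. The part of lymphoid RNA in the ribosomal differences was not tested.

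Single genes stood out in the direct test of the genotypes. Zbtb8a, a zinc finger protein, had the largest positive interaction among genes that met the naming rule (3.17 ± 0.42, adjusted p = 0.000586): it stood at 7.26 and 6.95 CPM in 1-copy brown and 12.1 and 12.7 CPM in 1-copy white, against 2.77 and 2.91 CPM in wild type brown and 39.0 and 50.2 CPM in wild type white. Aplnr, the apelin receptor of vessels, had 105 and 68.6 CPM in 1-copy brown and 40.3 and 32.7 CPM in 1-copy white, against 15.4 and 10.2 CPM in wild type brown and 35.2 and 32.3 CPM in wild type white. The white values of Aplnr overlapped between the genotypes and the brown values did not, and its depot order was reversed (1.25 ± 0.28 in 1-copy and -1.42 ± 0.30 in wild type mice). Rsad2 was likewise higher in 1-copy brown (1.39 ± 0.33) and lower in wild type brown (-1.44 ± 0.33). Adra1d, an alpha-1 adrenergic receptor, had 51.6 and 48.2 CPM in 1-copy brown and 3.64 and 4.49 CPM in 1-copy white, with no call in wild type mice (adjusted p = 0.117). Ccl6, a chemokine of myeloid cells, was higher in white of both genotypes, by -1.72 ± 0.56 with 1 copy and -4.47 ± 0.59 in wild type mice, where the 2 white libraries stood at 275 and 80.4 CPM. The 1-copy call of Ccl6 was lost without either brown library or white replicate 2 (adjusted p up to 0.0898), and that of Zbtb8a without any of the 4 libraries (adjusted p up to 0.116).

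Skeletal muscle calls depended on single libraries. Of 19 tested, 11 were higher in 1-copy white and 1, Mb (myoglobin, 3.59 ± 0.59), was higher in 1-copy brown. Acta1, skeletal muscle actin, had 0.227 and 0.709 CPM in 1-copy brown and 355 and 11.02 CPM in 1-copy white, and Ttn, titin, had 0.302 and 0.284 CPM in brown and 108 and 6.80 CPM in white. Without white replicate 1 the count was 5 of 19, without either 1-copy brown library it was 2, and without white replicate 2 it was 14. Ttn was called in each of these fits (-4.51 without white replicate 1). With the 4 libraries fitted alone neither Acta1 nor Ttn was called (adjusted p = 0.16 and 0.154). Between the wild type depots 15 muscle genes were higher in brown, where their summed level was 4241 and 1749 CPM in brown and 52.4 and 53.9 CPM in white. Muscle RNA thus moved with libraries of different depots in the 2 genotypes, and its part in other differences was not tested.

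Cd55, Myc and Phgdh completed the named white-higher genes that stood apart. Cd55, a complement regulator that also marks interstitial progenitors, had 8.77 and 9.85 CPM in 1-copy brown and 82.0 and 76.5 CPM in 1-copy white (-3.09 ± 0.12). Myc, a growth regulator, had 15.1 and 9.43 CPM in brown and 57.8 and 57.7 CPM in white. Phgdh, the first enzyme of serine synthesis, had 10.5 and 15.8 CPM in brown and 91.3 and 100.4 CPM in white. All 3 were also higher in wild type white, and the interaction was called for Cd55 (-0.79 ± 0.16) and Myc (0.84 ± 0.27).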

How the data were processed

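Polyadenylated RNA was measured, and libraries were made with a stranded mRNA kit, per the labels. The deposited table held the authors' raw read counts per gene in 24541 rows, including added rows for Cre and loxP (loxP held 0 reads throughout). Per the submitters' processing notes the tools were STAR and featureCounts (Subread) with build mm10; versions, annotation and strand setting are not given in the sources used here, so antisense and overlapping genes and near-identical paralogs are uncertain. Groups came from tissue and genotype labels. All 12 libraries in 6 groups were fitted together (edgeR 4.0.16, R 4.3.3; filterByExpr, TMM factors 0.804 to 1.31, robust quasi-likelihood test, two-sided, Benjamini-Hochberg over 15559 genes), leaving 6 residual degrees of freedom at a common coefficient of variation of 0.155. SE is the log2 fold change divided by the square root of F. Bounds set a group at 0 to 3 counts and cover counting error only. Replicates correlated at 0.973 to 0.989 and differed by more than sampling noise (chi-square per degree of freedom 8.80 to 38.5).

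Named genes were the anchors (transgene, depot and cell type markers), the 12 largest stand-apart differences each way (mean log2 CPM of at least 3, no overlap between the groups), the 6 largest marked, up to 4 members of each of 38 lists and the 5 largest interactions each way; to limit length, part of the list members are given, and some named genes are not reported here. The members, lists and rules were chosen with earlier results of these data known. Alternatives were median-of-ratios scaling, DESeq2 1.42.0, no filter, a mean CPM of at least 1, a fold of 1.5, leaving out each library, the 4 libraries alone, marked genes removed, another mark and wild type white as partner. The fit was tested on simulated data with known differences. Promoters and positions came from RefSeq (GRCm38.p6) and GENCODE tables; figures used matplotlib 3.10.9.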

Additional observations from a re-analysis of the deposited data

Results flagged for a closer look

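For 65 of the 120 genes named, the depot difference itself differed between 1-copy and wild type mice in edgeR's test of the interaction (1-copy brown minus white, less wild type brown minus white, log2 scale, adjusted p under 0.05). It was higher for 40 and lower for 25. Over all 15559 tested genes it was called higher in 13.8% and lower in 18.8%. Part of the named genes were picked for large interactions or for the lymphoid mark, so the count follows partly from that choice. No group held enough libraries to look for single outlying values.

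Lymphoid genes had large negative values. In B cell and antigen presentation genes they were -8.75 for Cd79a, -6.79 for Cd79b, -8.08 for Ms4a1, -8.59 for Cd22, -11.21 for Cr2, -8.9997 for Fcer2a, -8.39 for Mzb1 and -6.44 for H2-Ob. In T cell and node genes they were -6.91 for Cd3e, -7.73 for Cd8a, -8.00 for Cd8b1, -6.64 for Tcf7, -7.51 for Lat, -7.52 for Ccr7, -6.97 for Ccl21a and -2.65 for Clu. Mki67 had -1.06, and the ribosomal genes Rpl12, Rps16 and Rpl6 had -1.28, -1.25 and -0.55. Glycam1 had no call because both brown groups were at 0.

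Muscle genes had -15.91 for Acta1 and -17.53 for Ttn, with muscle RNA in 1-copy white replicate 1 and in both wild type brown libraries.

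The named brown fat and energy genes mostly had positive values. They were 2.20 for S100b, 1.80 for Kng2, 1.26 for Adrb3 (not called between the 1-copy depots), 0.65 for Ndufa8, 0.62 for Cox5a, 0.71 for Cpt2, 0.95 for Etfa, 0.66 for Fh1, 0.70 for Suclg1 and 0.70 for Acad8. Glucose and lipid genes had 0.86 for Pgam1, 0.85 for Ldhb, 1.10 for Acacb, 1.55 for Mlxipl, 1.00 for Plin3, 0.99 for Gpd1 and 0.65 for Hmgcs1. Vessel, hormone and clock genes had 1.09 for Tek, 1.07 for Flt1, 1.48 for Slc16a10, 0.81 for Thrb, 1.22 for Hlf, 1.69 for Per3 and 0.87 for Ckb. Zfp516, not called between the 1-copy depots, and Srebf2, higher in white, had -1.23 and -1.17.

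Patterning genes had 2.06 for Lhx8, 1.66 for Hoxa5, 2.10 for Hoxa4, 0.69 for Hoxc5 and 1.13 for Ebf3. White adipocyte, matrix and other genes had 0.89 for Adipoq, 1.46 for Ccdc80, 0.99 for Lum, 0.87 for Mmp2, 0.77 for Dcn, -0.79 for Cd55 and 0.84 for Myc. Zbtb8a had 3.17, Rsad2 2.83, Adra1d 2.82, Ccl6 2.75 and Aplnr 2.67.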

How the results depend on the processing

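No paired analysis was possible because the labels carry library numbers only and share no replicate number between groups. Counts moved by over 1.5 times under the alternatives below. A test against a fold of 1.5 gave 2871 brown-higher calls with 1 copy, 1630 of them standing apart, and 2602 unmarked white-higher calls, 1768 of them standing apart. It gave 2127 brown-higher and 3323 white-higher calls in wild type mice and 351 higher and 1222 lower interactions. A mark at a log2 difference of 2 left 1087 marked white-higher genes, and wild type white in place of 1-copy white left 889. Removing marked genes left 1419 higher interactions. Leaving out a library gave 1265 to 2113 higher interactions, with 1265 and 1280 without 1-copy brown replicate 1 and 2 and 1276 without 1-copy white replicate 2.

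The direction reversed only with wild type white in place of 1-copy white, of the alternatives run on the genes reported. The log2 differences were then -0.42 for Adipoq, 0.33 for Ccl21a, 0.49 for Ccr7, 2.17 for Cd22, 1.28 for Cd79a, 0.13 for Cd79b, 0.83 for Cd8b1, -0.36 for Cdh19, 0.68 for Cr2, 0.54 for Egr3, 2.39 for Fcer2a, 2.05 for Fcmr, 0.93 for H2-Ob, -0.051 for Hbb-bs, 1.92 for Ms4a1, 0.23 for Pim2, -0.089 for Rsad2 and 1.11 for Ttn. With 2 libraries a group and total counts of 15679884 to 22373009, values under about 1 CPM rest on few reads, and the cause of lost calls was not tested.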
